A study of Mus musculus with 11 samples.

Results

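Heat shock proteins are chaperones that hold unfolded proteins, refold them or pass them on for degradation. The 10 genes described here are Hspa1a, Hspa1b and Hspa8 of the HSP70 family, Hsp90aa1 and Hsp90ab1 of the HSP90 family, the J-domain partner Dnajb1, the HSP110 exchange factor Hsph1, the small heat shock protein gene Hspb1, and Hspd1 and Hspe1, which encode the chaperonin of mitochondria and its lid. They were picked by symbol from the 32285 genes of the count matrices, by a rule that holds no measured value but was written with earlier results of these data known. All 10 were tested in each of 13 cell types, which gave 130 gene and cell type pairs per comparison. The libraries came from 11 mice, each giving 1 droplet-based 3′ single-cell RNA library of the right brain. The sham + WT group held 3 mice, the sham + Lrg1-/- group 3, the MCAO/R + WT group 2 and the MCAO/R + Lrg1-/- group 3. MCAO/R is transient occlusion of the middle cerebral artery followed by reperfusion, and sham mice had the operation without the occlusion. The study's methods list several reperfusion times and do not say which one these mice had. WT mice were young adult C57BL/6 males. Lrg1-/- is a conventional, whole-body knockout of the gene for a secreted leucine-rich glycoprotein, in a line backcrossed to C57BL/6N, and the study's methods give these mice an older age and another source than the WT mice. Genotype, source, substrain and age therefore cannot be told apart. All tissue was dissociated with warm enzymes and treated to lyse red cells before loading.

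In unstressed cells HSP70 and HSP90 hold the transcription factor HSF1 inactive. When unfolded proteins occupy these chaperones HSF1 is set free, forms trimers and binds arrays of the unit NGAAN in the promoters of Hspa1a, Hspa1b, Dnajb1, Hsph1, Hspb1 and the chaperonin genes. Hspa8, Hsp90ab1 and the chaperonin pair are abundant in resting cells, whereas Hspa1a and Hspa1b are the classic inducible pair. In brain, ischemia induces these genes in neurons, glia and vessels, and warm enzymatic digestion of tissue can induce them too, together with immediate early genes such as Fos and Jun. In summed counts, a change in the share of cells that express a gene and a change in the RNA per cell cannot be told apart.

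Libraries held 37159497 to 171813031 UMIs over all deposited barcodes, and the median cell that passed the filters held 6064 to 9943 UMIs in WT and 4674.5 to 7911 in Lrg1-/- mice after sham, against 9611 to 11504 in WT and 3190 to 6456.5 in Lrg1-/- mice after MCAO/R. Of 122944 cells kept, 99787 were in clusters that could be named from marker genes, and every cell type name used here stands for such a marker-named, "like" cluster. The named share was 88.2% to 98.2% in WT libraries and 82.4% to 93.0% in 4 of the Lrg1-/- libraries, but 63.8% in sham + Lrg1-/- replicate 5 and 50.2% in MCAO/R + Lrg1-/- replicate 5. Lrg1 counted 148, 517 and 219 UMIs in endothelial cells of the sham + WT group and 13628 and 12329 in those of the MCAO/R + WT group, against 0 in each of the 6 Lrg1-/- libraries, for which a count of 0 allows up to 3 UMIs. Pairs of libraries shared 14 to 180 cell barcodes, at most 1.24% of the smaller library. The name red blood cell went against the data in part: haemoglobin genes gave at most 0.0719% of the UMIs of these cells in the 3 sham + WT libraries and 0.00452% in MCAO/R + WT replicate 1, against 10.9% to 56.5% in the other libraries. So no member is described in them, although they stand in the counts. Lrg1-/- and WT libraries stood apart in haemoglobin RNA in every cell type: its summed level in microglia was 18.8 to 25.8 CPM (UMI counts scaled to a common total, with TMM normalisation) in the sham + WT group and 15.4 to 21.0 CPM in the MCAO/R + WT group, against 17514 to 34261 CPM and 8349.8 to 21788 CPM in the matching Lrg1-/- groups. Ttr, a transcript of choroid plexus epithelial cells, gave 0.00992% to 0.0503% of microglial UMIs in the WT libraries and 0.245% to 0.409% in the Lrg1-/- libraries. Genotype and whatever else set the Lrg1-/- libraries apart cannot be told apart in this design.

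The letters of units found near the starts of 6 of the genes are shown here, since Hspa1a is set beside Hspa1b and Hspd1 beside Hspe1 in the results. Sequences are from RefSeq on GRCm38.p6, 5′ to 3′ on the gene's own strand, and capitals mark the searched units GAANNTTC and TTCNNGAA. Hspa1a (ENSMUSG00000091971, chr17:34969190-34972156, minus strand) and Hspa1b (ENSMUSG00000090877, chr17:34956436-34959238, minus strand) are near-identical neighbours 9951 bases apart, and their windows of 300 bases around the start were the same at 296 positions (98.7%). The stretches printed, chr17:34972132-34972306 for Hspa1a and chr17:34959214-34959388 for Hspa1b, hold 150 bases before and 25 after the transcript start, with 1 unit beginning 104 bases before it in both. The window of Hspb1 (ENSMUSG00000004951, chr5:135887919-135889563, plus strand) is chr5:135887769-135887943 and holds units beginning 117 and 97 bases before the start.
Hspa1a: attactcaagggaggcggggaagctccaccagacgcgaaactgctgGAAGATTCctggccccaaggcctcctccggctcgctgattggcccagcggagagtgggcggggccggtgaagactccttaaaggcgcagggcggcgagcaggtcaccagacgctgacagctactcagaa
Hspa1b: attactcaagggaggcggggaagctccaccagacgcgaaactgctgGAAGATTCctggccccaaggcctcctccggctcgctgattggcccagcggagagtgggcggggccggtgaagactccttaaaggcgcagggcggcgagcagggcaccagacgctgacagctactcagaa
Hspb1: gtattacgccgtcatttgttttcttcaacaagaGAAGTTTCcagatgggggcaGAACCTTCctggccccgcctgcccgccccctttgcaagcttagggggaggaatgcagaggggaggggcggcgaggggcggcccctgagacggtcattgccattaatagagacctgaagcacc

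Hspd1 (ENSMUSG00000025980, chr1:55077835-55088243, minus strand) and Hspe1 (ENSMUSG00000073676, chr1:55088132-55091307, plus strand) are transcribed away from each other and overlap by 112 bases in the annotation. They share 1 run of 4 alternating TTC and GAA triplets within chr1:55088053-55088082, and the run begins 89 bases before the start of Hspe1. RefSeq lists 2 starts of Hspd1: the run lies 144 bases before the one at 55087932, while the window around the one at 55088243, the outer end of the gene, holds 0 units and the run lies downstream of it. Hsph1 (ENSMUSG00000029657, chr5:149614287-149636376, minus strand) holds a run of 3 such triplets within chr5:149636279-149636308, and the run begins 16 and 37 bases after the 2 starts that RefSeq lists. A further TTCNNGAA, not printed, begins 54 and 33 bases before those starts.
Hspe1 and Hspd1 shared run, on the strand of Hspe1: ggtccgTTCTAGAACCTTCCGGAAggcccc
Hsph1 run: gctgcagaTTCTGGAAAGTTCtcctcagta
Of all 32851 promoter windows of the same length, 7.86% held GAANNTTC, 8.52% TTCNNGAA, 15.1% either and 0.603% 3 alternating triplets, on either strand. The window of Dnajb1 (ENSMUSG00000005483, chr8:83608193-83612653) held neither, and Hspa8 (ENSMUSG00000015656, chr9:40800984-40810087), Hsp90aa1 (ENSMUSG00000021270, chr12:110690605-110702728) and Hsp90ab1 (ENSMUSG00000023944, chr17:45567775-45573271) were not in the promoter table, which matched 7 of the 10 genes.

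In WT mice the called changes after MCAO/R were falls, chiefly of Hspa1a, Hspa1b, Hsph1, Dnajb1 and Hsp90aa1. Of 130 pairs 0 rose and 42 fell (edgeR quasi-likelihood test, Benjamini-Hochberg adjusted p under 0.05 and a natural-log fold over 0.25), where 4.72% of all gene and cell type pairs tested rose and 4.45% fell. At an unadjusted p under 0.05, 7 pairs were higher and 73 lower, 26 pairs lay above 0 on the log2 scale, and DESeq2 called 1 higher and 53 lower. The median log2 fold change of the members was −0.56, beside 0.00 over all genes. In Lrg1-/- mice 9 pairs rose and 12 fell after MCAO/R, against 6.14% and 5.1% of all pairs, with a median of −0.07 beside 0.00. Between sham groups 5 pairs were higher and 30 lower in Lrg1-/- mice, against 5.71% and 5.86% of all pairs, with a median of −0.18 beside 0.00. After MCAO/R the count ran the other way, with 27 pairs higher and 4 lower in Lrg1-/- mice against 8% and 7.21% of all pairs, and a median of 0.42 beside 0.02. The surgery and genotype contrasts share groups, so their counts are not independent of each other.

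**Figure D1:**
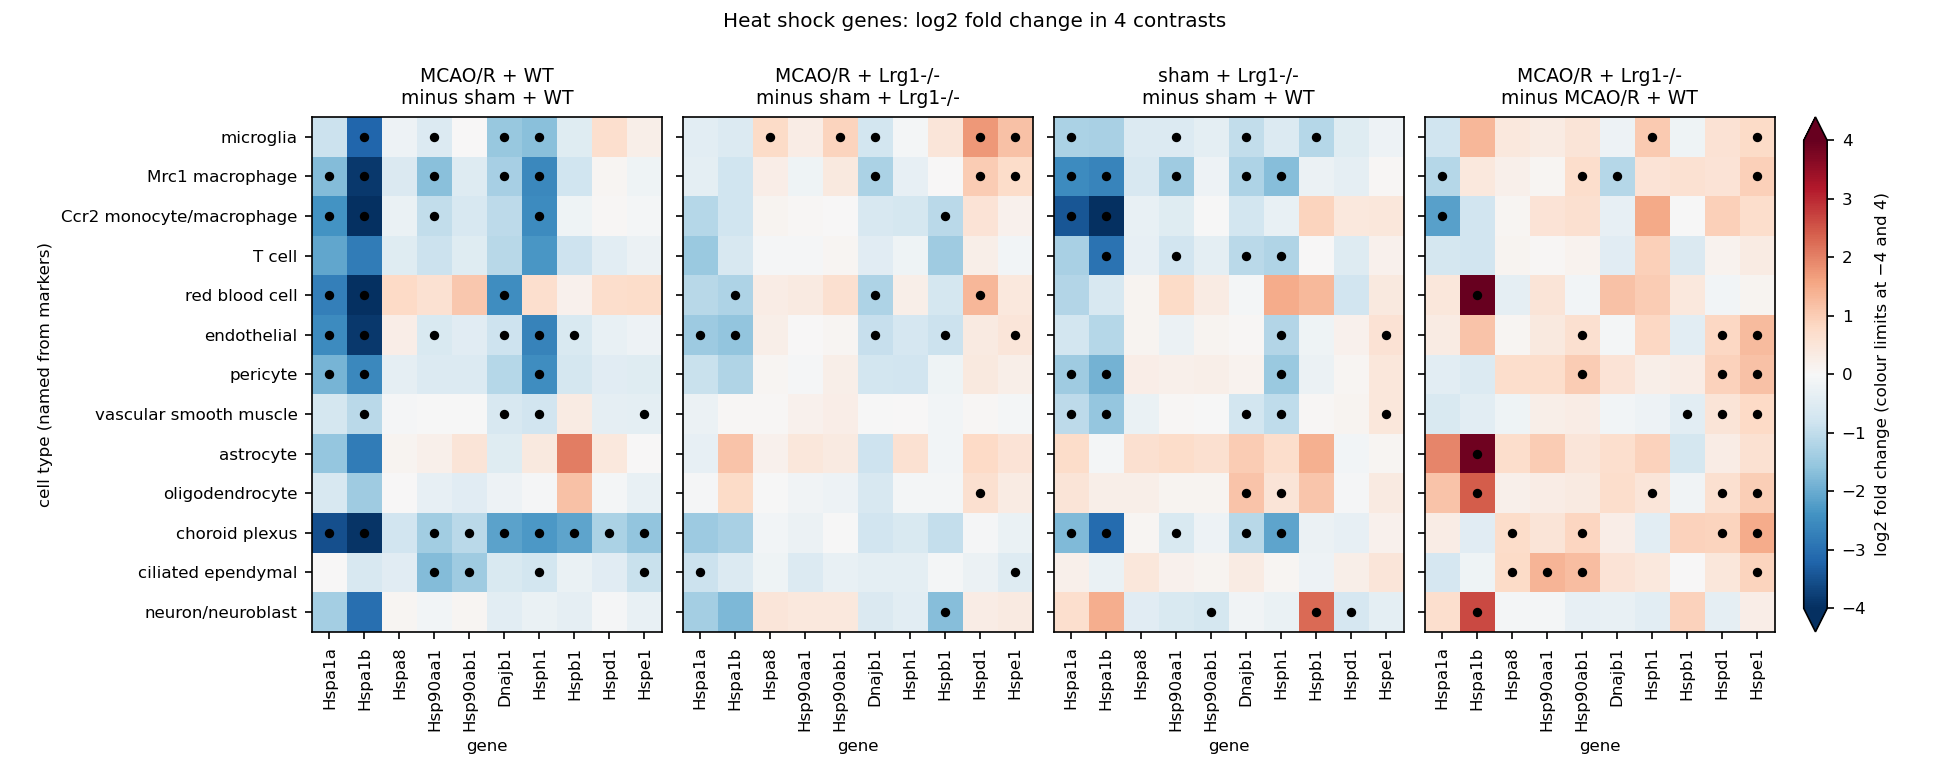
Log2 fold change (colour) of the 10 heat shock genes (columns) in 13 cell types (rows) in 4 contrasts, with a black dot where the pair passed the test. The first panel holds 42 dots, all on blue (lower) cells, and the fourth holds 27 dots on red (higher) and 4 on blue cells.

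Single libraries carried part of these counts. Without sham + Lrg1-/- replicate 2 the surgery count in Lrg1-/- mice went from 21 to 9. Without sham + WT replicate 3 the count between sham groups went from 35 to 23. Without MCAO/R + WT replicate 2 the count between the MCAO/R groups went from 31 to 6, where the lone MCAO/R + WT library was taken to vary like the other groups. In WT mice the split of 0 higher and 42 lower became 8 higher and 22 lower without MCAO/R + WT replicate 2, and the lower calls numbered 30 to 47 without any other 1 library, with at most 1 higher. Of the 42 pairs 15 were called under every alternative, as were 6 of 21, 11 of 35 and 1 of 31 in the other contrasts, counting only the alternatives that could be fitted. The limit of 50 cells per library left out the sham + WT libraries of Ccr2 cells, which held 34, 36 and 48 cells, and so gave no value for their contrasts with that group. Without any 1 library 15, 8, 17 and 4 of them kept their call. The largest adjusted p of a pair given beside a lost call is edgeR's over all alternatives.

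Before any comparison, the levels of the genes in the sham + WT group differed widely between cell types. Each cell type was scaled on its own, so levels set across cell types rest on separate scalings. Hspa1a was highest in pericytes at 2704 ± 692 CPM (mean ± SD, n = 3) and Mrc1 macrophages at 2697 ± 973 CPM, which overlapped, and lowest in oligodendrocytes at 56.1 ± 8.95 CPM. Its first 5 cell types, ending with vascular smooth muscle at 939 ± 195 CPM, all lay above the microglia at 633 ± 150 CPM, while neighbours within the first 5 overlapped. Hspa1b had the same first 4 cell types with Mrc1 macrophages on top at 1134 ± 436 CPM, and was lowest in neurons or neuroblasts at 26.0 ± 14.1 CPM. Hspa8, the constitutive HSP70, ran only from 469 ± 25.1 CPM in astrocytes to 2294 ± 454 CPM in Mrc1 macrophages. Both HSP90 genes were highest in ciliated ependymal cells, with no overlap with the next cell type: Hsp90aa1 at 4298 ± 306 CPM and Hsp90ab1 at 2551 ± 177 CPM. Hsph1 was highest in ciliated ependymal cells at 326 ± 8.03 CPM, overlapping choroid plexus epithelial cells at 288 ± 87.5 CPM. Dnajb1 was highest in Mrc1 macrophages at 742 ± 44.5 CPM and microglia at 599 ± 117 CPM, which overlapped. Hspb1 marked the vessel wall, with 1476 ± 137 CPM in endothelial cells, 1274 ± 123 CPM in vascular smooth muscle and 839 ± 192 CPM in pericytes, all above choroid plexus epithelial cells at 348 ± 119 CPM. Hspd1 and Hspe1 were highest in choroid plexus epithelial cells, at 209 ± 3.93 and 348 ± 33.9 CPM. Hspd1 there overlapped neurons or neuroblasts at 191 ± 14.6 CPM, while Hspe1 did not overlap the next cell type.

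Hspa1a was lower after MCAO/R in WT mice in 12 of 13 cell types, with 6 calls, and Hspa1b in 13, with 8 calls. In Mrc1 macrophages, the phagocytes of brain borders, Hspa1b stood at 631, 1366 and 1406 CPM in the sham + WT group and at 107 and 46.7 CPM in the MCAO/R + WT group. The 2 MCAO/R libraries lay far below all sham libraries. The log2 fold change was −3.85 ± 0.52 (SE, adjusted p = 0.000240 by edgeR's quasi-likelihood test), and it stayed called under every alternative. Hspa1a in the same cells was at 1577, 3173 and 3339.9 CPM after sham and at 831 and 785 CPM after MCAO/R, a log2 fold change of −1.74 ± 0.37. In the Lrg1-/- groups the same cells showed no called change of either gene: Hspa1b was at 141, 268 and 124 CPM after sham and at 109.5, 152 and 39.97 CPM after MCAO/R, and the groups overlapped.

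In microglia, the resident phagocytes, Hspa1b was called and Hspa1a was not; that difference between the genes was not tested. Hspa1a was at 460.2, 717 and 723 CPM in the sham + WT group, 241, 326 and 229 CPM in the sham + Lrg1-/- group, 423 and 272 CPM in the MCAO/R + WT group and 96.1, 301 and 193 CPM in the MCAO/R + Lrg1-/- group. The sham + WT libraries were the highest. Hspa1a after MCAO/R in WT mice missed the threshold, with a log2 fold change of −0.87 ± 0.37 (95% interval −1.66 to −0.07, edgeR adjusted p = 0.115). Between sham groups it fell in Lrg1-/- mice by 1.26 ± 0.33 on the log2 scale (edgeR adjusted p = 0.0147), a call lost without sham + Lrg1-/- replicate 1 and without replicate 5 (largest adjusted p over the alternatives, 0.0715). Hspa1b was at 116, 279 and 301 CPM, 78.7, 162 and 38.7 CPM, 34.4 and 17.3 CPM, and 52.8, 107 and 34.6 CPM in the same order of groups. It fell after MCAO/R in WT mice, by 3.16 ± 0.63 on the log2 scale (edgeR adjusted p = 0.00302), and was not called in the other 3 contrasts: −0.53 after MCAO/R in Lrg1-/- mice, −1.30 between sham groups (edgeR adjusted p = 0.0809) and 1.33 between MCAO/R groups. The microglia of the sham and MCAO/R groups came from different clusters: clusters 1 and 11 held 69.2% and 21.7% of them in the sham + WT group and 52.5% and 22.2% in the sham + Lrg1-/- group, while clusters 4 and 6 held 32.9% and 38.8% of those of WT mice and 46.7% and 32.5% of those of Lrg1-/- mice after MCAO/R.

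**Figure D2:**
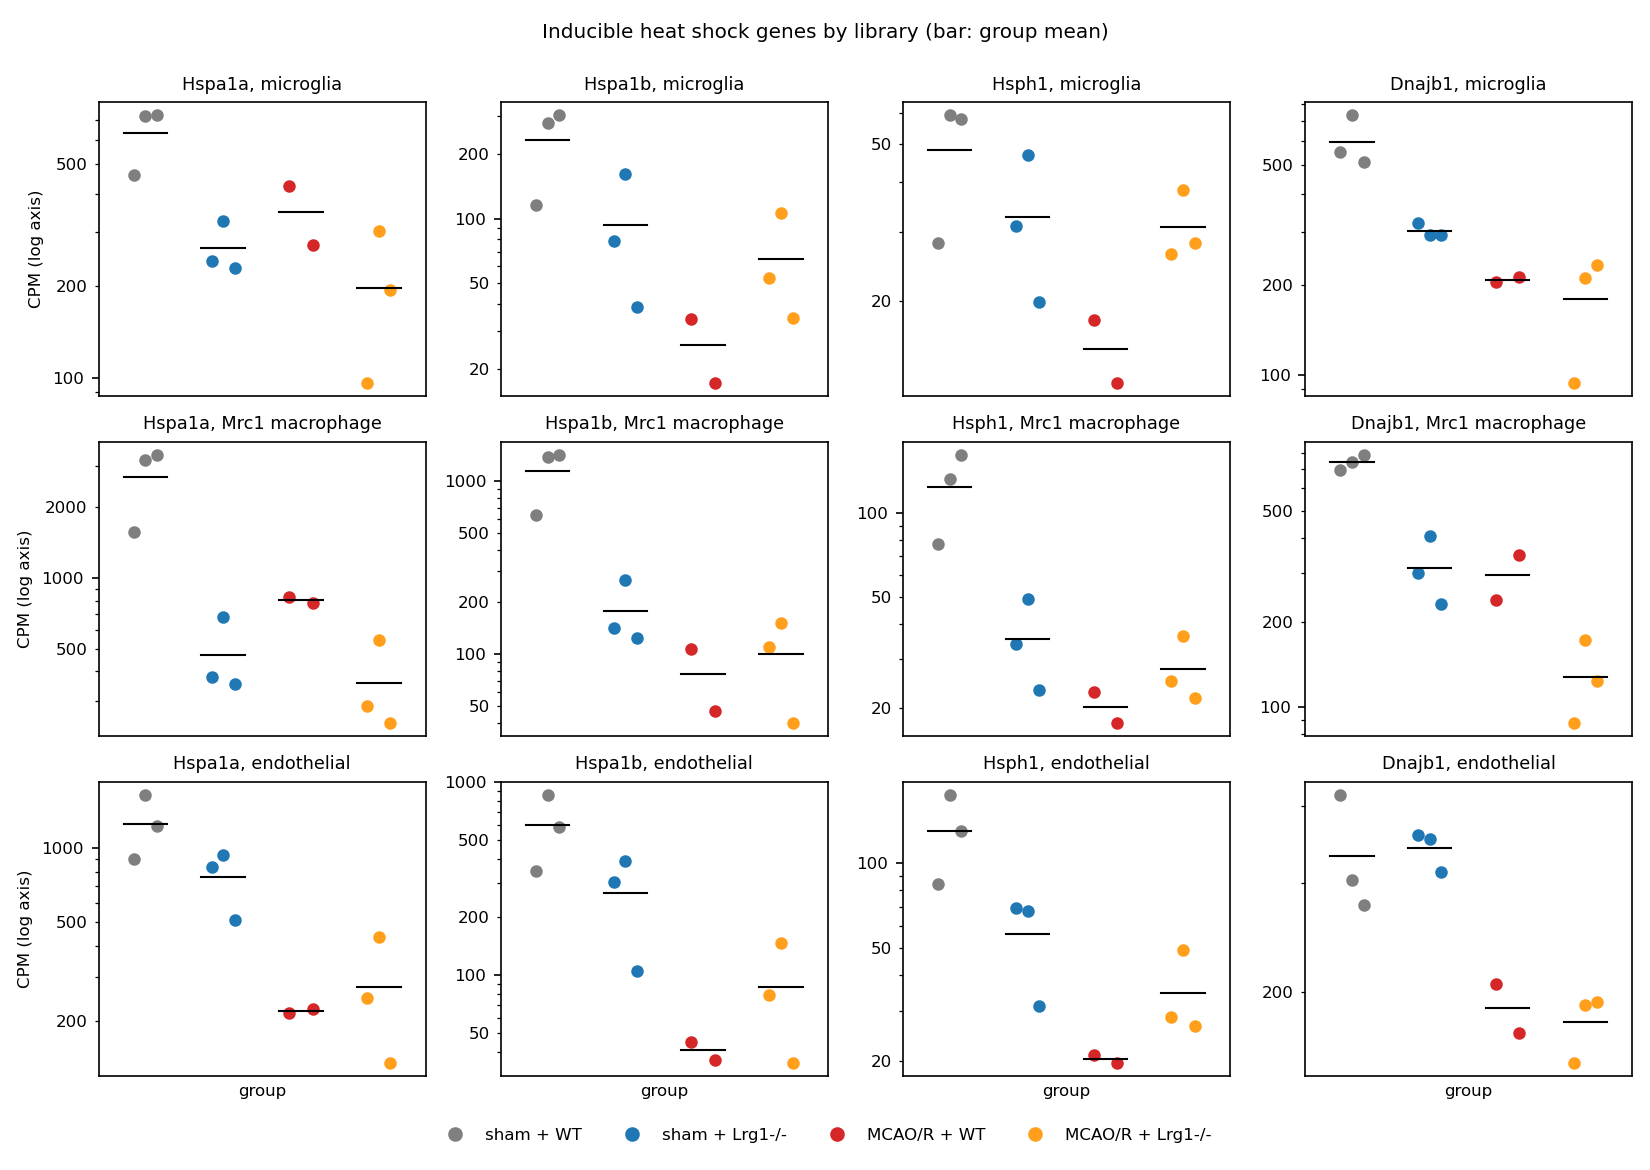
CPM (log axis) of Hspa1a, Hspa1b, Hsph1 and Dnajb1 in microglia, Mrc1 macrophages and endothelial cells, 1 point per library in the 4 groups, with a bar at the group mean. The 3 sham + WT points lie above both MCAO/R + WT points in all 12 panels. The panels share the same libraries, and the share of all genes with such a gap was not counted.

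Between sham groups both genes were lowest against WT in monocyte-derived cells. In Ccr2 monocytes or macrophages Hspa1a stood at 1494, 926 and 2002 CPM in the sham + WT group and at 76.3, 147 and 198 CPM in the sham + Lrg1-/- group. Every WT library was above every Lrg1-/- library, and the log2 fold change was −3.43 ± 0.39 (edgeR adjusted p = 0.000303). Hspa1b was at 532, 368 and 1071 CPM against 37.3, 33.5 and 32.5 CPM, with no overlap and a log2 fold change of −4.24 ± 0.50 (edgeR adjusted p = 0.000462). The sham + Lrg1-/- libraries held only 62, 20 and 28 of these cells, where 20 was the lowest number allowed. Hspa1a also fell in these cells after MCAO/R in WT mice (−2.41) and was lower in Lrg1-/- than WT mice after MCAO/R (−2.16), while after MCAO/R in Lrg1-/- mice its −1.13 was not called. Between MCAO/R groups Hspa1b was called lower in Lrg1-/- mice in 0 of 13 cell types, where 7.21% of all pairs were. It was called higher in astrocytes, oligodendrocytes and neurons or neuroblasts, among others. In astrocytes it was at 5.37 and 4.18 CPM in the MCAO/R + WT group and at 38.6, 146 and 12.6 CPM in the MCAO/R + Lrg1-/- group. It rose there by 3.88 ± 0.82 on the log2 scale, and by 2.42 in oligodendrocytes and 2.65 in neurons or neuroblasts. The calls in these 3 cell types were lost without MCAO/R + WT replicate 2 (largest adjusted p 0.159, 0.0579 and 0.200). The astrocyte and neuron calls were also lost when replicate 2 of the MCAO/R + Lrg1-/- group was left out, and the neuron call without replicate 1 of either MCAO/R group. The Hspa1a calls after MCAO/R in Ccr2 cells were lost without MCAO/R + WT replicate 1 (WT surgery, 0.102) and replicate 2 (genotype, 0.0971).

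Hspa1a and Hspa1b are known as near-identical copies, so how the counting split reads between them is uncertain. Their transcripts were not compared here. Their ratio within a library needs no scaling. In microglia the sham + WT libraries held 25.2, 38.9 and 41.6 Hspa1b UMIs per 100 Hspa1a UMIs and the MCAO/R + WT libraries held 8.12 and 6.35. In endothelial cells the ratios were 38.3, 52.7 and 48.3 after sham against 20.9 and 16.4 after MCAO/R. Both MCAO/R + WT libraries were below all sham + WT libraries in 12 of 13 cell types, the exception being choroid plexus epithelial cells, where MCAO/R + WT replicate 1 held 85.3. The 12 include cells named red blood cells and T cells, with 1 and 14 Hspa1b UMIs in the whole MCAO/R + WT group. In ciliated ependymal cells the gap was narrow, from 70.2 to 73.0. In Lrg1-/- mice the MCAO/R libraries were below all sham libraries in 0 of 13 cell types and above them in 1. A group of 2 libraries lies clear of 3 more easily than a group of 3 does. In microglia of Lrg1-/- mice the ratios were 32.7, 49.6 and 16.9 after sham and 54.9, 35.4 and 17.9 after MCAO/R. The cell types of a library share the same mouse and preparation, so the 13 are not independent. The ratio was neither tested nor set beside those of other gene pairs.

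**Figure D3:**
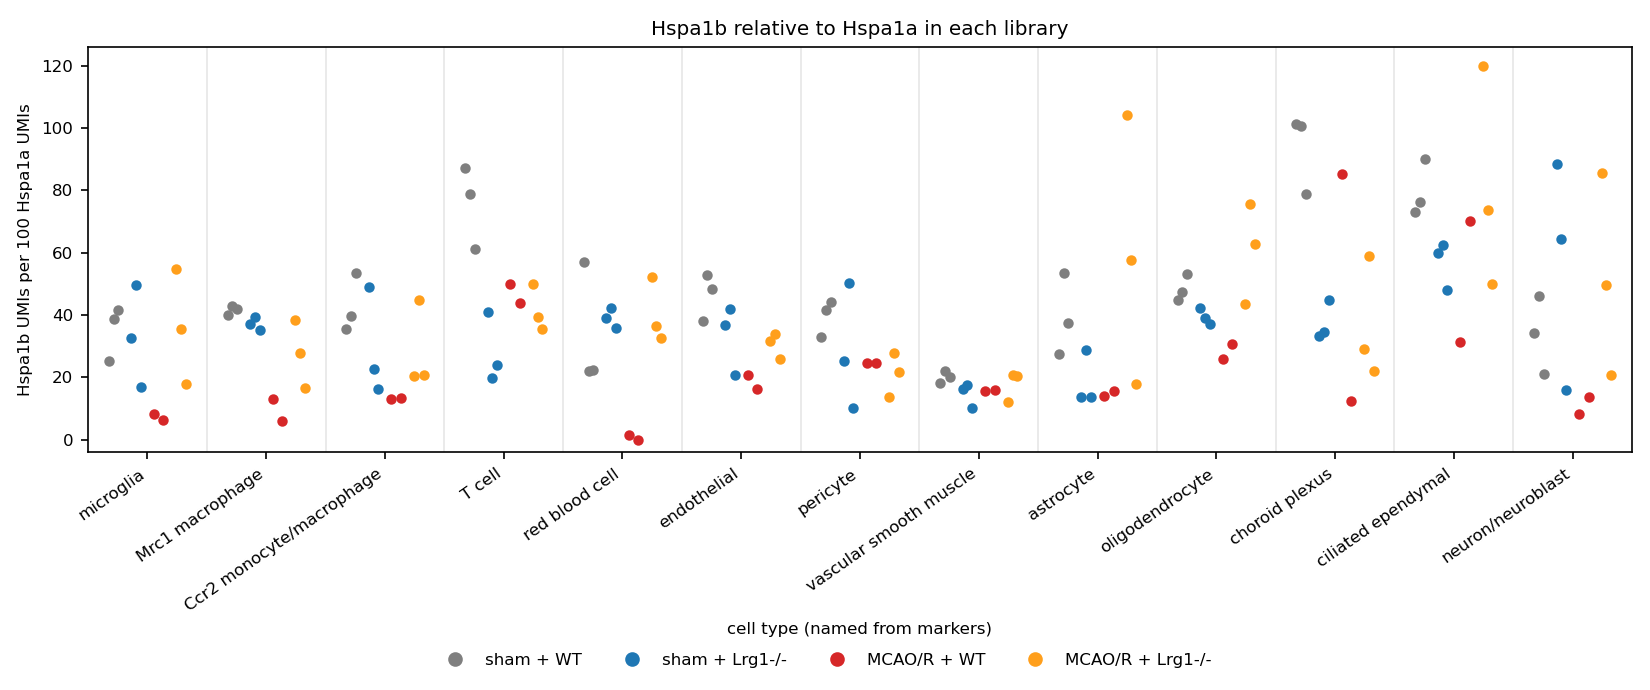
Hspa1b UMIs per 100 Hspa1a UMIs (vertical axis) in each library, by cell type (horizontal axis) and group (colour). Both MCAO/R + WT points lie below the sham + WT points in 12 of the 13 cell types, and the Lrg1-/- groups overlap in 12.

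Hsph1, which swaps the nucleotide on HSP70, fell in as many cell types of WT mice as Hspa1b. In Mrc1 macrophages it stood at 77.7, 132 and 161 CPM in the sham + WT group and at 22.8 and 17.7 CPM in the MCAO/R + WT group, with a gap between the groups, and fell by 2.58 ± 0.32 on the log2 scale (edgeR adjusted p = 0.000141), the smallest adjusted p of any member in this contrast. It was at 33.8, 49.3 and 23.3 CPM in the sham + Lrg1-/- group and at 25.1, 36.2 and 21.8 CPM in the MCAO/R + Lrg1-/- group, which overlapped (−0.34, not called). The WT fall was also called in endothelial cells (−2.67), Ccr2 monocytes or macrophages (−2.53), pericytes (−2.48), choroid plexus epithelial cells (−2.31), microglia (−1.67), vascular smooth muscle (−0.77) and ciliated ependymal cells (−0.74). In Lrg1-/- mice Hsph1 had 0 calls over 13 cell types, with values from −0.76 to 0.62. Between sham groups Hsph1 in choroid plexus epithelial cells was at 193, 366 and 304 CPM in WT and at 60.0, 73.4 and 65.8 CPM in Lrg1-/- mice, groups that did not overlap, and the log2 fold change was −2.12 ± 0.26 (edgeR adjusted p = 0.000570). Cluster 7 held 36.7% of these cells in sham WT and 59.8% in sham Lrg1-/- mice and cluster 12 the others, with medians of 2554 and 8031 UMIs per cell over the clusters, and the part of this shift was not tested. After MCAO/R it was higher in Lrg1-/- than in WT mice in microglia (1.04) and oligodendrocytes (0.49). These calls were lost without any of 7 and 6 single libraries (largest adjusted p 0.254 and 0.136), MCAO/R + WT replicate 2 among both. The WT falls in ciliated ependymal cells, vascular smooth muscle and Ccr2 cells were lost without either MCAO/R + WT library and without sham + WT replicate 3 (0.531, 0.255 and 0.0776), the first 2 also without sham + WT replicate 2. The fall in choroid plexus epithelial cells was lost without MCAO/R + WT replicate 2 (0.179).

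Dnajb1, the J-domain protein that hands substrates to HSP70, fell after MCAO/R in 6 cell types of WT and 4 of Lrg1-/- mice. Its WT calls in Mrc1 macrophages, vascular smooth muscle and cells named red blood cells were lost without MCAO/R + WT replicate 1. That in choroid plexus epithelial cells was lost without replicate 2. Hspa1a, Hspa1b, Hspb1 and Hspe1 also had falls in both genotypes, with 6 and 2, 8 and 2, 2 and 3, and 3 and 1 calls. In endothelial cells it was at 417, 303 and 277 CPM in the sham + WT group and 206 and 172 CPM in the MCAO/R + WT group, and at 359, 354 and 313 CPM against 154, 191 and 193 CPM in the Lrg1-/- groups. Every MCAO/R library lay below every sham library of its genotype. Endothelial cells were spread over their clusters in different shares by then. Cluster 8 held 9.52% of them after sham and 42.3% after MCAO/R in WT mice, and 21.3% and 81.9% in Lrg1-/- mice. The part of this shift in the endothelial surgery results was not tested. The log2 fold change was −0.82 ± 0.17 (edgeR adjusted p = 0.00482) in WT mice, a call lost without MCAO/R + WT replicate 2 (adjusted p = 0.0513), and −0.93 ± 0.15 (edgeR adjusted p = 0.00142) in Lrg1-/- mice. In microglia it was at 552, 732 and 512 CPM and 204 and 213 CPM in WT mice, and at 322, 292 and 293 CPM and 94.3, 211 and 233 CPM in Lrg1-/- mice (log2 fold changes −1.52 and −0.74, both called, the second lost without any 1 sham + Lrg1-/- library, largest adjusted p 0.219). Over the 13 cell types its log2 fold change was below 0 in 13 in each genotype. Between sham groups Dnajb1 had 1 call higher and 5 lower in Lrg1-/- mice, where 5.71% and 5.86% of all pairs were called. The lower calls were in Mrc1 macrophages, microglia, T cells, choroid plexus epithelial cells and vascular smooth muscle. Only that in T cells was kept in every alternative. The higher call was in oligodendrocytes, at 108, 152 and 128 CPM in sham Lrg1-/- against 63.3, 66.4 and 45.4 CPM in sham WT mice (1.13 ± 0.25, edgeR adjusted p = 0.00972). It was lost without sham + Lrg1-/- replicate 2 and with cells thinned to 1000 UMIs (largest adjusted p 0.202). Cluster 10 held 20.2% of these oligodendrocytes in sham WT and 55.2% in sham Lrg1-/- mice, and the median mitochondrial share was 3.56% to 3.81% and 5.76% to 6.50%, whose part was not tested.

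After MCAO/R in WT mice the median log2 fold change over cell types was −0.56 for Hsp90aa1, −0.46 for Hsp90ab1 and −0.20 for Hspa8. Hsp90aa1, the stress-responsive cytosolic HSP90, fell after MCAO/R in 6 cell types of WT mice and in 0 of Lrg1-/- mice. Its WT calls in Mrc1 macrophages and ciliated ependymal cells were kept in every alternative, while the others were lost without MCAO/R + WT replicate 2. Its smallest adjusted p was in ciliated ependymal cells, the lining of the ventricles, at 4041, 4637 and 4217 CPM in the sham + WT group and 1275 and 1311 CPM in the MCAO/R + WT group, against 4782, 5483 and 4322 CPM and 4082, 3160.3 and 2825 CPM in the Lrg1-/- groups. The MCAO/R + WT libraries stood alone at the bottom, and the WT log2 fold change was −1.73 ± 0.20 (edgeR adjusted p = 0.000251) beside −0.54 in Lrg1-/- mice, which was not called. Hsp90ab1, the constitutive partner, did likewise in these cells, at 2520.3, 2741 and 2390.2 CPM against 1060.3 and 864 CPM in WT mice (−1.41, called) and at 2814, 2985 and 2504 CPM against 2381, 2181 and 2251 CPM in Lrg1-/- mice (−0.29, not called). The difference between the genotypes was not called for either gene in these cells (1.20 and 1.12 on the log2 scale, edgeR adjusted p = 0.211 and 0.172). Between MCAO/R groups Hsp90ab1 was higher in Lrg1-/- mice in 5 cell types, among them ciliated ependymal cells (1.24) and pericytes (1.02). All 5 calls were lost without MCAO/R + WT replicate 2, which left 1 library in that group. In microglia Hsp90ab1 and Hspa8 rose after MCAO/R in Lrg1-/- mice, by 0.91 and 0.77 on the log2 scale, beside 0.01 and −0.20 in WT mice, which were not called, and the difference between genotypes was not called for either. Hspa8 was at 1254, 1852 and 1578 CPM and 1769 and 953 CPM in WT microglia, where 1 MCAO/R library lay within the sham range and the other below it, and at 1061, 1013 and 1121 CPM and 1401, 2110.2 and 1921 CPM in Lrg1-/- microglia, where the groups did not overlap. The Hspa8 call was lost without sham + Lrg1-/- replicate 2 or MCAO/R + Lrg1-/- replicate 2 (largest adjusted p 0.0581).

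Hspb1, a small heat shock protein that binds actin and unfolded clients, changed in few places. In endothelial cells it was at 1322, 1521 and 1584 CPM after sham and 1097 and 833 CPM after MCAO/R in WT mice, and at 1373, 1411 and 1178 CPM and 649, 848 and 667 CPM in Lrg1-/- mice. All MCAO/R libraries were below the sham libraries of their genotype, and both falls were called (−0.61 and −0.87 on the log2 scale). The WT call was lost without sham + WT replicate 3 or MCAO/R + WT replicate 2 (largest adjusted p 0.158). In astrocytes the MCAO/R + WT libraries disagreed, with 661 CPM in replicate 1 and 32.5 CPM in replicate 2, and the log2 fold change of 2.04 was not called. In neurons or neuroblasts Hspb1 was at 149.6, 254 and 313 CPM in the sham + Lrg1-/- group, above the 38.9, 48.9 and 52.2 CPM of the sham + WT group (2.28, called), and at 68.3, 84.8 and 53.7 CPM in the MCAO/R + Lrg1-/- group (−1.72 against sham, called, but lost without any of 6 single libraries, sham + Lrg1-/- replicates 2 and 5 among them, largest adjusted p 0.269). Between MCAO/R groups it was called lower in Lrg1-/- mice in vascular smooth muscle (−0.41), a call lost without any of 8 single libraries (0.237).

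The mitochondrial chaperonin pair had 7 calls higher and 1 lower after MCAO/R in Lrg1-/- mice, over 13 cell types for each gene. Of all pairs 6.14% and 5.1% were called. Among the 7, 1 was Hspd1 in the cells named red blood cells. In microglia, where both genes rose, 21.2% of all genes did. In WT mice 0 pairs were called higher and 4 lower. The WT falls were of Hspd1 (−1.26) and Hspe1 (−1.57) in choroid plexus epithelial cells, and Hspe1 in ciliated ependymal cells (−0.90) and vascular smooth muscle (−0.40). Each of these WT falls was lost without MCAO/R + WT replicate 2 (largest adjusted p 0.567, 0.245, 0.237 and 0.762). Hspd1, whose protein forms the folding barrel, was at 68.4, 64.2 and 49.4 CPM in microglia of the sham + Lrg1-/- group and at 219, 229 and 168 CPM in those of the MCAO/R + Lrg1-/- group, which did not overlap. It rose by 1.74 ± 0.25 on the log2 scale (edgeR adjusted p = 0.000186). Hspe1, its lid, was at 97.4, 90.4 and 70.8 CPM and 187, 222 and 180.4 CPM, and rose by 1.18 ± 0.17 (edgeR adjusted p = 0.000202). In WT microglia Hspd1 stood at 73.7, 95.6 and 86.8 CPM after sham and 188 and 85.9 CPM after MCAO/R (0.68, not called), and Hspe1 at 94.9, 103 and 99.6 CPM and 142 and 91.0 CPM (0.23, not called). MCAO/R + WT replicate 1 was above and replicate 2 within or below the sham range. The Lrg1-/- rise was also called for both genes in Mrc1 macrophages (1.005 and 0.73), for Hspd1 in oligodendrocytes (0.64) and for Hspe1 in endothelial cells (0.48), while in ciliated ependymal cells Hspe1 fell (−0.51). These 5 calls were each lost without several single libraries, MCAO/R + Lrg1-/- replicate 2 among them for all 5 (largest adjusted p 0.302, 0.213, 0.258, 0.223 and 0.450), whereas the microglial calls were kept in every alternative.

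**Figure D4:**
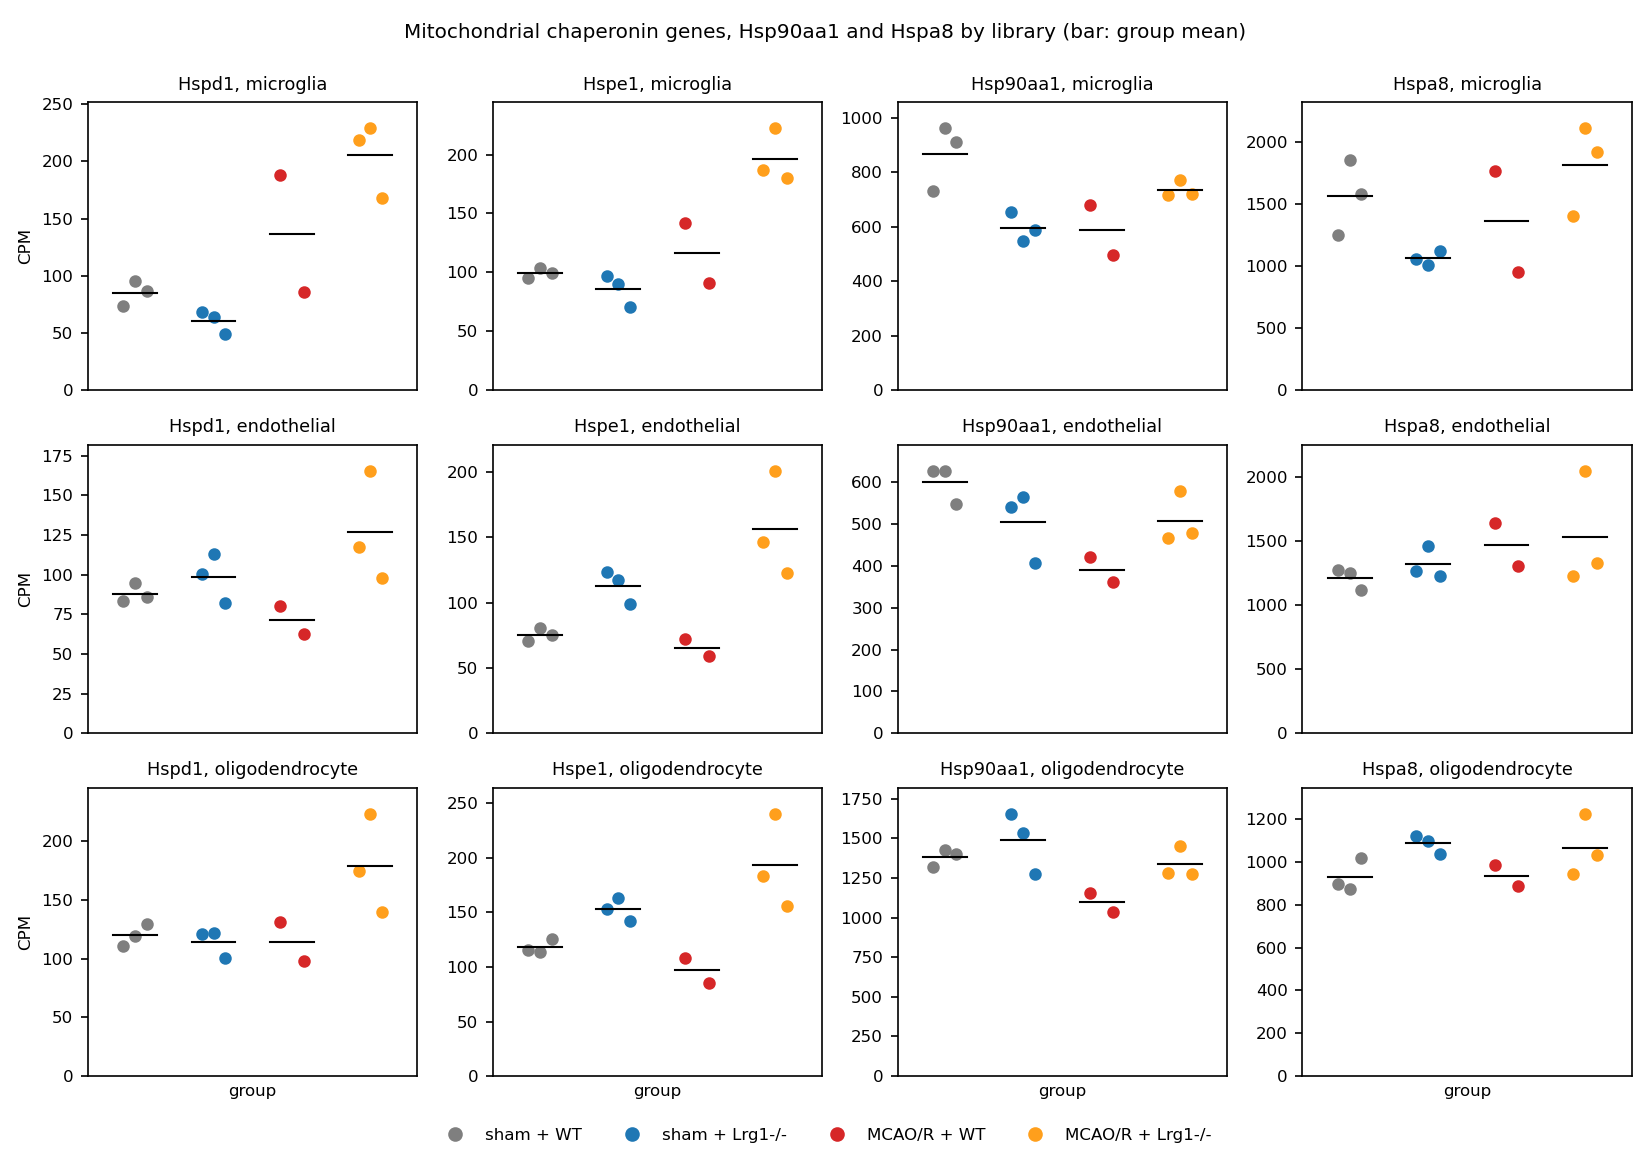
CPM of Hspd1, Hspe1, Hsp90aa1 and Hspa8 in microglia, endothelial cells and oligodendrocytes, 1 point per library in the 4 groups, with a bar at the group mean and axes from 0. For Hspe1 the 3 MCAO/R + Lrg1-/- points lie above both MCAO/R + WT points in each of the 3 cell types.

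Between MCAO/R groups Hspe1 was higher in Lrg1-/- mice in 8 of 13 cell types, where 8% of all pairs were, and above 0 on the log2 scale in all 13. Without MCAO/R + WT replicate 2 the calls in Mrc1 macrophages, ciliated ependymal cells, microglia and pericytes were lost, which left 4 of the 8. In endothelial cells it was at 71.8 and 59.3 CPM in WT mice and at 147, 201 and 123 CPM in Lrg1-/- mice, without overlap, and the log2 fold change was 1.27 ± 0.18 (edgeR adjusted p = 0.000440). In oligodendrocytes it was at 108 and 85.7 CPM against 183, 240.4 and 156 CPM (0.995 ± 0.16, edgeR adjusted p = 0.000786), and in vascular smooth muscle at 70.5 and 76.2 CPM against 139.7, 121 and 125.5 CPM (0.79 ± 0.12, edgeR adjusted p = 0.000858). The cells compared were not of like make-up: after MCAO/R cluster 8 held 42.3% of WT and 81.9% of Lrg1-/- endothelial cells. Cluster 10 held 15.3% and 71.9% of oligodendrocytes. The median mitochondrial share of oligodendrocytes was 3.56% to 3.95% in WT and 7.91% to 9.42% in Lrg1-/- libraries. Their median UMIs per cell were 13500.5 to 15674.5 and 3316 to 6439, and the part of these values in the result was not tested. The oligodendrocyte and vascular smooth muscle calls were lost when cells were thinned to 1000 UMIs, at adjusted p = 0.0566 and 0.181. Part of this gap was present after sham: endothelial Hspe1 was at 70.5, 80.7 and 75.0 CPM in WT and at 123, 117 and 98.6 CPM in Lrg1-/- mice (0.59, called), and vascular smooth muscle at 98.3, 97.8 and 95.1 CPM against 146, 124 and 129 CPM (0.46, called). Hspd1 was higher after MCAO/R in Lrg1-/- mice in 5 cell types, among them pericytes (0.91), choroid plexus epithelial cells (0.89) and endothelial cells (0.84). These calls were lost without MCAO/R + WT replicate 2 (largest adjusted p 0.314, 0.644 and 0.0858). The sham calls of Hspe1 were lost without any sham + WT library in endothelial cells (0.0808) and without sham + WT replicate 3 in vascular smooth muscle (0.312).

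The difference between the 2 surgery contrasts was tested itself, as an interaction. Of 130 pairs 6 were called higher and 0 lower, where 0.863% and 0.687% of all pairs were. At an unadjusted p under 0.05, 59 were higher and 3 lower, and DESeq2 called 17. The median over members was 0.62 on the log2 scale beside 0.02 over all genes. In Mrc1 macrophages the interaction was 3.07 ± 0.64 for Hspa1b, 2.24 ± 0.47 for Hsph1 and 1.51 ± 0.31 for Hsp90aa1 (edgeR adjusted p = 0.0490 for each). In endothelial cells it was 2.02 ± 0.48 for Hsph1 (edgeR adjusted p = 0.0461). In microglia it was 0.86 ± 0.22 for Hsp90aa1 (edgeR adjusted p = 0.0309) and 0.95 ± 0.25 for Hspe1 (edgeR adjusted p = 0.0351). Hsp90aa1 in Mrc1 macrophages stood at 1457, 1587 and 1758 CPM in the sham + WT group, 569 and 436 CPM in the MCAO/R + WT group, 626, 769 and 381 CPM in the sham + Lrg1-/- group and 478, 579 and 549 CPM in the MCAO/R + Lrg1-/- group, so the sham + WT group stood apart from the other three. Hsph1 in endothelial cells was at 84.3, 174 and 130.1 CPM, 20.9 and 19.7 CPM, 69.6, 67.6 and 31.1 CPM and 28.6, 49.1 and 26.6 CPM in the same order. Hsp90aa1 in microglia was at 729.8, 961 and 911 CPM, 680.1 and 497 CPM, 655, 547 and 588 CPM and 716, 772 and 720.3 CPM. Of the 6 calls 0 survived the removal of each library in turn. The count was 0 without sham + WT replicate 2 or 3, sham + Lrg1-/- replicate 1 or 5, or MCAO/R + Lrg1-/- replicate 2, 1 without sham + Lrg1-/- replicate 2 or MCAO/R + WT replicate 2, and 12 without MCAO/R + WT replicate 1. The call left without MCAO/R + WT replicate 2 was lower, against the direction of the 6.

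Falls in WT mice were called in 9 of 13 cell types, among them the cells named red blood cells, whose name went against the data in part. There were 4 members each in Ccr2 monocytes or macrophages (2.15% of genes), vascular smooth muscle (5.94%) and ciliated ependymal cells (1.06%) and 3 in pericytes (0.68%). Without MCAO/R + WT replicate 1, Hspa1a, Hsph1 and Hsp90aa1 in Ccr2 cells and Dnajb1 and Hsph1 in vascular smooth muscle lost their calls. Without replicate 2, Hsph1 and Hspe1 in ciliated ependymal cells did. In choroid plexus epithelial cells 9 of 10 members fell where 0.472% of all genes did, but MCAO/R + WT replicate 2 gave only 24 of these cells, and all 9 calls were lost without that library and when at least 50 cells per library were asked for. In Mrc1 macrophages 5 of 10 fell (4.4% of genes), in endothelial cells 6 of 10 (10.3%) and in microglia 4 of 10 (9.8%). In Mrc1 macrophages 5 of 10 were also lower between sham groups, where 1.47% of genes were: Hspa1a (−2.50), Hspa1b (−2.64), Hsph1 (−1.71), Hsp90aa1 (−1.42) and Dnajb1 (−1.22), the last lost without sham + WT replicate 3 (largest adjusted p 0.0552). In Lrg1-/- microglia 4 of 10 rose after MCAO/R where 21.2% of genes did. Between MCAO/R groups 3 of 10 were higher in Lrg1-/- endothelial cells (13.2% of genes) and 4 of 10 in choroid plexus epithelial cells (13.8%). The calls of Hsp90ab1 and Hspd1 in both of these cell types were lost without MCAO/R + WT replicate 2.

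Other chaperone genes were counted by family, against 6.14% of all pairs higher and 5.1% lower after MCAO/R in Lrg1-/- mice, and 21.2% of genes higher in the microglia of that contrast. The endoplasmic reticulum folding list, 17 genes for chaperones and isomerases of the secretory pathway, rose in 65 and fell in 1 of 221 pairs after MCAO/R in Lrg1-/- mice, against 13 and 17 in WT mice. It was higher in 77 and lower in 3 between MCAO/R groups, against 8% and 7.21% of all pairs. Of its interactions 22 were called higher and 0 lower, against 0.863% and 0.687%. Sdf2l1, an endoplasmic reticulum co-chaperone, rose by 1.70 in Lrg1-/- endothelial cells after MCAO/R, and Creld2 by 2.28 and Calr by 1.67 in Lrg1-/- microglia. The 8 subunit genes of the cytosolic chaperonin TRiC rose in 36 and fell in 0 of 104 pairs after MCAO/R in Lrg1-/- mice (8 and 0 in WT mice), led by Tcp1 (1.40), Cct5 (1.53) and Cct2 (1.29) in microglia. The 6 other mitochondrial chaperones and proteases rose in 10 and fell in 0 of 76 pairs in that contrast, with a median of 0.23 on the log2 scale and calls of Trap1 (1.15), Clpp (1.17) and Grpel1 (1.20) in microglia. The HSP90 and HSP70 co-chaperones, 17 genes, were higher in 51 and lower in 12 of 214 pairs between MCAO/R groups (8% and 7.21% of all pairs), among them Bag1, the HSP70 exchange factor, in oligodendrocytes (1.11) and Fkbp4 in choroid plexus epithelial cells (1.54).

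Fkbp5, an HSP90-binding immunophilin and a classic glucocorticoid target, rose by 3.94 ± 0.15 on the log2 scale in WT microglia after MCAO/R (edgeR adjusted p = 1.07e-08). It rose by 1.78 in Lrg1-/- microglia and was lower in Lrg1-/- than WT microglia after MCAO/R (−1.87). The counts of other lists in WT mice stand against 4.72% of all pairs higher and 4.45% lower. The 12 other J-domain genes rose in 6 and fell in 12 of 151 pairs in WT mice after MCAO/R, with Dnajb2 at −1.69 in oligodendrocytes and Dnaja1 at −1.56 in Mrc1 macrophages. Of the 8 other HSP70 and HSP110 genes, 9 pairs rose and 6 fell of 96, and Hspa12a rose by 2.40 in WT oligodendrocytes and was lower by 2.94 in Lrg1-/- than in WT oligodendrocytes after MCAO/R. The 5 other small heat shock genes rose in 3 and fell in 5 of 44 pairs in WT mice. The list of 3 genes for the heat shock factors Hsf1 and Hsf2 and the factor-binding protein Hsbp1 had 1 call higher of 39. It was Hsbp1 in Mrc1 macrophages (0.79), and Hsf1 was not called in that contrast.

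Immediate early genes mark tissue handling as well as injury. Their sum was lower in Lrg1-/- libraries, without overlap after sham or after MCAO/R, in microglia, Mrc1 macrophages, T cells and vascular smooth muscle. Their summed level in microglia was 48451 to 53376 CPM in the sham + WT group, 47333 to 49986 CPM in the MCAO/R + WT group, 24279.7 to 28517 CPM in the sham + Lrg1-/- group and 16064 to 23634 CPM in the MCAO/R + Lrg1-/- group. In Mrc1 macrophages the ranges were 53735 to 62299 CPM, 51835 to 60985 CPM, 25703 to 34084 CPM and 17003 to 20632 CPM. In T cells they were 15172 to 22591 CPM, 15540.5 to 22738 CPM, 11113 to 13495 CPM and 6947 to 9072 CPM. The gap was narrow in sham vascular smooth muscle, with 39067 to 41708 CPM in WT and 37726.5 to 38184 CPM in Lrg1-/- mice. In endothelial cells they were 46501 to 52047 CPM, 40314 to 44094 CPM, 45655 to 47398 CPM and 27413 to 29430.0 CPM, lower after MCAO/R in both genotypes, as endothelial Hspa1a, Hspa1b, Dnajb1 and Hspb1 were. In oligodendrocytes the order differed, with 3325 to 4388 CPM in the sham + WT group, 4974 to 5733 CPM in the MCAO/R + WT group and 6809 to 9465 CPM in the sham + Lrg1-/- group. The MCAO/R + Lrg1-/- libraries, at 4949 to 8084 CPM, overlapped both of the latter. The list's counts stand against the shares of all pairs given for each contrast (4.72% and 4.45%, 6.14% and 5.1%, 5.71% and 5.86%, 8% and 7.21%, higher and lower). Of 247 pairs of this list 20 rose and 16 fell after MCAO/R in WT mice, and 3 rose and 65 fell in Lrg1-/- mice. Between sham groups 40 were higher and 39 lower in Lrg1-/- mice, and between MCAO/R groups 10 were higher and 76 lower. The list's medians were −0.05 and −0.52 on the log2 scale for surgery in WT and Lrg1-/- mice, and 0.09 and −0.18 for genotype after sham and after MCAO/R. In WT microglia and Mrc1 macrophages Hspa1b and Hsph1 fell while the ranges of the immediate early sum overlapped between sham and MCAO/R, and the lower Hspa1a and Hspa1b of sham Lrg1-/- Mrc1 macrophages came with a lower immediate early sum. In Ccr2 cells, where those differences were −3.43 and −4.24, the sums were at 25529, 14255 and 29315 CPM in sham WT and 13982, 12667 and 15067 CPM in sham Lrg1-/- mice. They overlapped only through sham + WT replicate 2. Of the 19 immediate early genes 4 were called lower and 0 higher in these cells, with a median of −0.51 on the log2 scale. In Mrc1 macrophages 7 were called lower and 0 higher, with a median of −0.56. Haemoglobin genes were higher in 52 of 52 pairs between sham groups and 48 of 52 between MCAO/R groups. The part of dissociation, haemoglobin or Ttr RNA or depth in the surgery and genotype results was not tested. Leaving out cells with over 1% haemoglobin UMIs gave 47, 23, 35 and 31 member calls in the 4 contrasts.

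**Figure D5:**
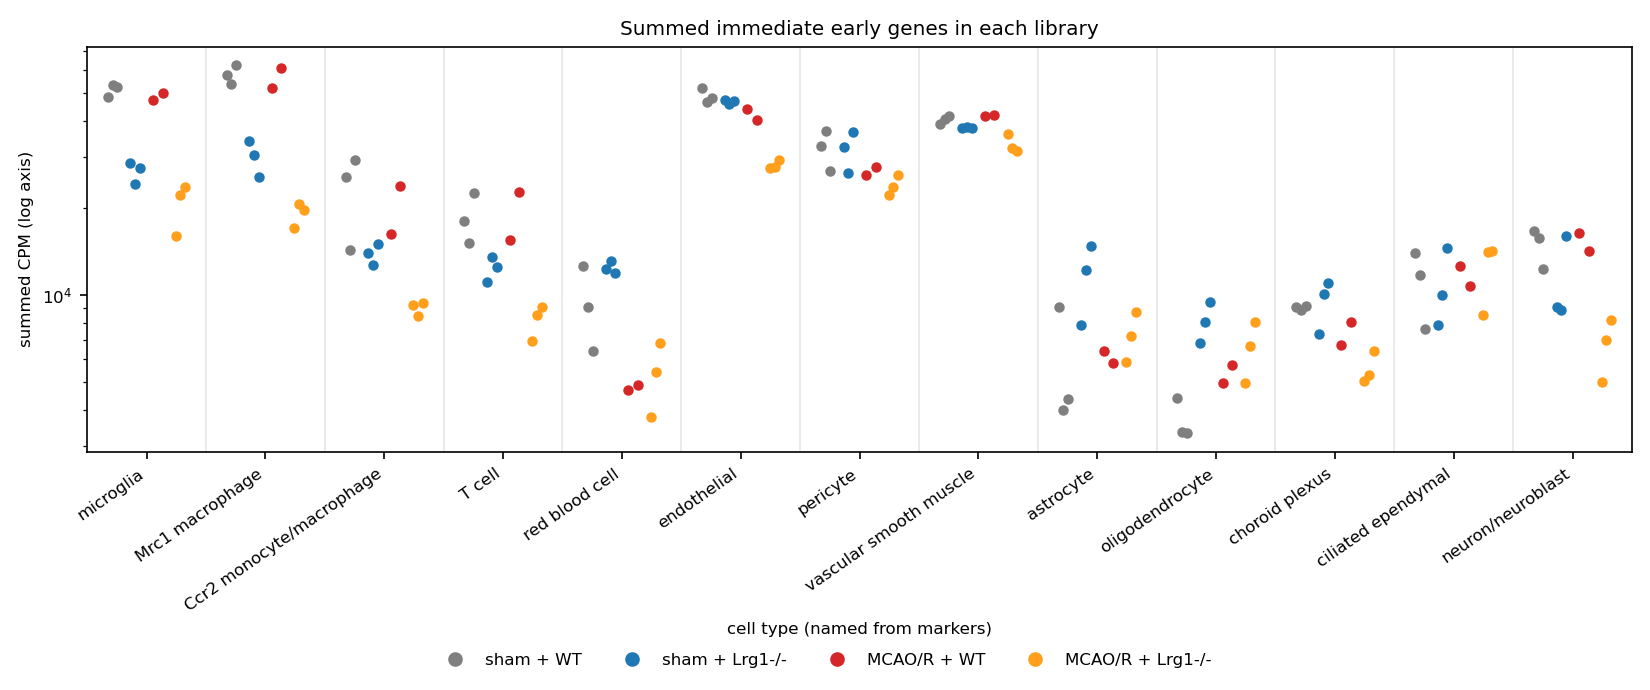
Summed CPM (log axis) of the immediate early genes in each library, by cell type (horizontal axis) and group (colour). In microglia and Mrc1 macrophages both WT groups lie above both Lrg1-/- groups, and in oligodendrocytes the sham + WT group is the lowest.

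Across the 143 sums of a cell type in a library, each gene's log2 level was centred within its cell type and compared with those of 7535 genes. Closest to Hspa1a were Atf3 (Pearson's r = 0.67), Klf2 (0.65), Rasgrp3 (0.63), Gm26532 (0.63) and Jun (0.62), of which Atf3, Klf2 and Jun are in the immediate early list. Closest to Hspa8 were Nudc (0.59), Rpl9 (0.59), Cct4 (0.59), Naca (0.58) and Rpl15 (0.58). The sums share 11 libraries and so are not independent points.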

How the data were processed

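Single-cell RNA libraries of 11 mice (1 per mouse) were analysed from the UMI counts per gene and cell barcode that the authors deposited. The submitters' processing notes name Cell Ranger, STAR and the build mm10, and the matrix headers name Cell Ranger 7.0.1. Of 155804 barcodes, 132437 had over 500 genes, over 1000 UMIs and under 25% mitochondrial UMIs. The 6% of cells per library with the highest doublet scores, and clusters with at least 40% such calls, were removed (9493 cells). Cells were clustered (igraph 0.11.9, leidenalg 0.10.2, 2000 variable genes, 15 components, 3 neighbours per library, resolution 2) and clusters were named from marker lists, by naming rules set after the clusters were seen. UMIs were summed per library and cell type (at least 20 cells), filtered by filterByExpr, scaled by TMM within each cell type and fitted over all 4 groups with edgeR 4.0.16 (quasi-likelihood, R 4.3.3). P-values were adjusted over all genes of a cell type (Benjamini-Hochberg). A call needed an adjusted p under 0.05 and a natural-log fold over 0.25. DESeq2 1.42.0 was an alternative. The fitting steps were also run on simulated microglia-like counts. These had the same spread for every gene and no library effects, so they cannot check the calls made here. Labels name mice as replicates, in groups of 3, 3, 2 and 3. The limit of 3 UMIs for a count of 0 covers counting error only, and the interval of a fold change is edgeR's over libraries.

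The members and gene lists were chosen with earlier results of these data known. All 10 members are described. Values of every library are given for the 3 called pairs with the smallest adjusted p in each contrast, for Hspa1a and Hspa1b in the cell type with the most cells, and for further pairs chosen after their values were seen. List genes named are among the 3 with the smallest adjusted p of a list in a contrast, besides Fkbp5 in Lrg1-/- microglia and Hsf1. Same-numbered libraries were not paired, as the labels name no pairs. Their deviations from group means correlated at −0.404 to 0.248. With so few libraries per group this cannot decide whether they belong together.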

Additional observations from a re-analysis of the deposited data

Results flagged for a closer look

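The effect of MCAO/R was called different between WT and Lrg1-/- mice for 6 of 130 pairs of heat shock gene and cell type. The calls were by the interaction term of edgeR's quasi-likelihood fit. All 6 were higher, where 0.863% of all pairs were called higher and 0.687% lower. The difference (Lrg1-/- minus WT, log2) was 3.07 for Hspa1b, 2.24 for Hsph1 and 1.51 for Hsp90aa1 in Mrc1 macrophages, 2.02 for Hsph1 in endothelial cells, and 0.86 for Hsp90aa1 and 0.95 for Hspe1 in microglia. In Mrc1 macrophages the WT and Lrg1-/- effects were −3.85 and −0.78 for Hspa1b, −2.58 and −0.34 for Hsph1, and −1.67 and −0.16 for Hsp90aa1. Between sham groups these genes were already called lower in Lrg1-/- than in WT Mrc1 macrophages. For Hspe1 in microglia the WT and Lrg1-/- effects were 0.23, not called, and a called 1.18. Of the 6 calls 0 survived the removal of each library in turn, and the count was 0 in 5 of these removals. Haemoglobin RNA differed between genotypes in these cells. The immediate early sum did so in microglia and Mrc1 macrophages, and in endothelial cells after MCAO/R, where it overlapped after sham. The part of these values in the differences was not tested.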

How the results depend on the processing

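The numbers of member calls (of 130 pairs) were 42 and 21 for surgery in WT and Lrg1-/- mice, 35 and 31 for genotype after sham and after MCAO/R, and 6 for the interaction. Without the expression filter they were 65, 40, 51, 50 and 43, the first with 4 higher and 61 lower. The genotype count after MCAO/R was 17 with cells thinned to 1000 UMIs and 15 with only the compared groups fitted. The interaction count was 2 with doublets kept, 3 with at least 50 cells per library and 17 by DESeq2. Leaving out 1 library gave 30 to 48 and 9 to 22 calls for surgery in WT and Lrg1-/- mice, 23 to 39 and 6 to 33 for genotype after sham and after MCAO/R, and 0 to 12 for the interaction. Without MCAO/R + WT replicate 2 the WT surgery calls were 8 higher and 22 lower. Hspa1b in microglia after MCAO/R in Lrg1-/- mice was −0.53, and −1.14 to 0.10 when 1 library was left out, the highest without sham + Lrg1-/- replicate 2. Leaving out the cells named red blood cells, chosen after seeing the data, gave 39, 18, 35, 30 and 6 calls. The cause of these shifts was not tested.

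The labels do not say whether shared replicate numbers mark pairs of mice. Deviations were taken from means of few libraries, so their correlations cannot decide it. A fit with the replicate number as a block gave 35 and 21 calls for surgery in WT and Lrg1-/- mice, 21 and 30 for genotype after sham and after MCAO/R, and 0 for the interaction. With each pair of libraries counted once in each cell type, 12 of 169 same-numbered pairs correlated above 0.1, and 48 of 416 other pairs.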
